A study of Homo sapiens with 6 samples.

Results

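The cytosolic ribosome is built from ribosomal RNA and a fixed set of ribosomal proteins, whose messenger RNAs are among the most abundant in a growing cell. The genes described here are the protein-coding genes named RPL (large, 60S subunit) or RPS (small, 40S subunit) plus a number, together with RPLP0, RPLP1, RPLP2, RPSA and FAU. They are 83 of the 59715 gene IDs in the count table, and 79 of them had enough counts to be tested among 14543 genes. Of the tested genes, 44 encode large-subunit proteins, 31 encode small-subunit proteins and 4 are paralog forms, that is, second genes for the same protein or a near relative. Not tested for low counts were the paralog forms RPL3L, RPL10L, RPL39L and RPS4Y1. By the rule that chose them, RPS27A, RPS27L, the RPS6K kinase genes, pseudogenes and the genes of chromosome 8 between 70.57 and 113.44 Mb (RPL7 and RPL30) were left out.

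RNA sequencing compared HCT116 cells labelled MLL4KO with HCT116 cells labelled MLL4WT, with 3 libraries of each genotype. HCT116 is a human colorectal carcinoma line with wild-type p53, and MLL4, the product of KMT2D, is a histone methyltransferase that places H3K4 methylation at enhancers. Both genotypes were grown in the same serum-containing medium with no treatment listed, and the labels give neither the knockout allele, nor the number of clones, nor whether the libraries came from separate cultures. The p-values below therefore measure the spread between these libraries, which may be technical. The study's title places the comparison in work on H3K4 methylation and p53-dependent transcription.

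Library totals were 19736751, 15859813 and 14775580 counts in MLL4KO replicates 1 to 3, and 6829400, 15013035 and 17828774 counts in MLL4WT replicates 1 to 3. MLL4WT replicate 1 was the shallowest and stood apart from the other MLL4WT libraries, so values without it are given where they bear on a result. KMT2D messenger RNA had 230, 243 and 225 CPM (the count divided by the scaled library size, in parts per 1e+06) in MLL4KO cells, against 240, 231 and 234 CPM in MLL4WT cells, so its total level did not separate the labels. A deletion that leaves most of the transcript would not show in this value. Of 5 epithelial markers, EPCAM, KRT8, KRT18 and KRT19 stood at 187 to 444 CPM in MLL4KO cells and 222 to 726 CPM in MLL4WT cells, and CDH1 at 10.7 to 12.1 CPM and 10.3 to 11.9 CPM. The leukocyte markers PTPRC and CD3E stayed below 1 CPM in every library. Of the fibroblast markers, COL1A1 stood at 25.1 to 28.7 CPM in MLL4KO cells and 21.8 to 23.1 CPM in MLL4WT cells, and COL1A2 and DCN at no more than 1.51 CPM. The endothelial markers PECAM1, VWF and CDH5 reached at most 2.65 CPM.

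Ribosomal protein messengers belong to the 5′ TOP class. They start at a cytosine followed by an unbroken run of pyrimidines, the 5′ terminal oligopyrimidine tract, through which mTORC1 and the RNA-binding protein LARP1 control their translation. Ribosomal proteins made in excess of their partners are degraded. Free RPL5 and RPL11, bound to 5S ribosomal RNA, inhibit MDM2 and so stabilise p53, which links ribosome supply to the p53 pathway.

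The start-site sequences show pyrimidine runs near the annotated start in most of these genes, and a paralog without a long run. In RefSeq's promoter table for GRCh38.p14, 68 of the 83 genes were matched by symbol. A run of at least 8 pyrimidines beginning within 10 bases of the annotated start was present in 55 of them (80.9%), against 13.0% of the 27305 genes in the table. It was present in 53 of 62 genes of the standard set and in 2 of 6 paralog forms. Each line below gives the 40 bases before and the first 20 bases of the transcript, 5′ to 3′. Capitals mark the longest pyrimidine run beginning within 10 bases of the annotated start. RPL28, RPS28, RPL13 and RPS12 are shown because they fell in MLL4KO cells, RPL11 and RPL22 for their high point estimates, and RPL22L1 and RPL7L1 as paralog forms that fell.
RPL28, chr19:55385892-55385951, plus strand: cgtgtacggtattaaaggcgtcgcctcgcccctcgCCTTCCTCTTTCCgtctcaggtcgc
RPS28, chr19:8321456-8321515, plus strand: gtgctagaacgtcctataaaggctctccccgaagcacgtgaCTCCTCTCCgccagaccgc
RPL13, chr16:89560642-89560701, plus strand: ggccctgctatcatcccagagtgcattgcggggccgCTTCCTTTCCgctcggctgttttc
RPS12, chr6:132814529-132814588, plus strand: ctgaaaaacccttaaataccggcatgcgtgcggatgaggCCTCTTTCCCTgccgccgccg
RPL11, chr1:23691766-23691825, plus strand: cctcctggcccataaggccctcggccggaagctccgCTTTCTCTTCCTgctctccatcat
RPL22, chr1:6199576-6199635, minus strand: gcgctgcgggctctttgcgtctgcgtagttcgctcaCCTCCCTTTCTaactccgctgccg
RPL22L1, chr3:170870176-170870235, minus strand: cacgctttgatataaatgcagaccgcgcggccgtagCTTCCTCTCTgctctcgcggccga
RPL7L1, chr6:42879576-42879635, plus strand: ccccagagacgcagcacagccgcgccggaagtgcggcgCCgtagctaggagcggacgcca

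All of these windows but that of RPL7L1 hold a run of 9 to 13 pyrimidines near the annotated start. In RPS28 this run begins at base 2 of the transcript. In the others it begins before the annotated start, so part of it lies outside the annotated transcript. The RPL7L1 window has a run of 2. Over the whole 300-base window (250 before and 50 after the start), both strands searched, the letters CCGGAAG, the core bound by ETS-family factors such as GABPA, were present in 22 of the 68 genes (32.4%), against 12.2% of all genes in the table. The letters ATGGCGG, part of the YY1 motif, were present in 13 (19.1%), against 6.66%, and TATAAA in 7 (10.3%), against 14.0%. Of the matched genes that fell, 7 of 8 had the pyrimidine run, as did 47 of 58 tested genes that did not pass.

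As a group, the ribosomal protein messengers were nearly level between the genotypes. Their counts made up 5.72, 5.69 and 5.78% of all counts in MLL4KO libraries, and 5.51, 5.56 and 5.64% in MLL4WT libraries, so that this raw share was slightly higher in each MLL4KO library. After scaling by the trimmed mean of M-values (TMM), their summed level was 56163 ± 585 CPM in MLL4KO cells and 56976 ± 940 CPM in MLL4WT cells (SD, n = 3 each), a log2 difference of -0.02. As a share of raw counts the log2 difference was 0.04. The sign of the summed difference thus rests on the scaling, and both sizes are small.

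The balance of the subunits was also close. Summed CPM of large-subunit genes over small-subunit genes was 1.585, 1.580 and 1.596 in MLL4KO libraries, against 1.610, 1.572 and 1.575 in MLL4WT libraries. The ranges overlap, and MLL4WT replicate 1 holds the highest value.

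Gene by gene, edgeR's quasi-likelihood test with Benjamini-Hochberg adjustment over all tested genes called 11 ribosomal protein genes lower in MLL4KO cells and 0 higher, at an adjusted p under 0.05. The other 68 did not pass. Thus 13.9% of these genes were called, beside a background of 41.4% over all tested genes (19.8% rose and 21.6% fell) and 46.8% over genes at a mean of 100 CPM or more, the level that 78 of the 79 reach. Without adjustment, 6 were higher and 18 lower at p under 0.05. limma-voom called 1 higher and 12 lower, beside 20.4% and 21.9% of all tested genes. The DESeq2 Wald test called 2 higher and 11 lower, beside 13.7% and 16.1%. Leaving out MLL4KO replicate 1, 2 or 3 left 1, 1 and 3 genes lower, with RPL28 among them each time. Of all tested genes, 16.3, 15.7 and 16.3% were lower in those fits. Leaving out MLL4WT replicate 1, 2 or 3 gave 29, 9 and 7 lower, beside 25.7, 17.5 and 17.9% of all tested genes.

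The fold changes were small throughout. The median log2 fold change, MLL4KO over MLL4WT, was -0.01 over the 79 genes, the quartiles were -0.10 and 0.06 and the range ran from -0.32 to 0.24. Over all tested genes the quartiles were -0.22 and 0.22. The 95% interval of the fold change lay within 1.25-fold either way for 73 of the 79 genes, beside 65.9% of the genes at 100 CPM or more. No interval lay wholly beyond 1.25-fold, and RPL28 alone had a point estimate past it. Libraries of the genotypes did not overlap in 35 of the 79 genes, 20 lower and 15 higher in MLL4KO cells, beside 52.5% of all tested genes.

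**Figure D1:**
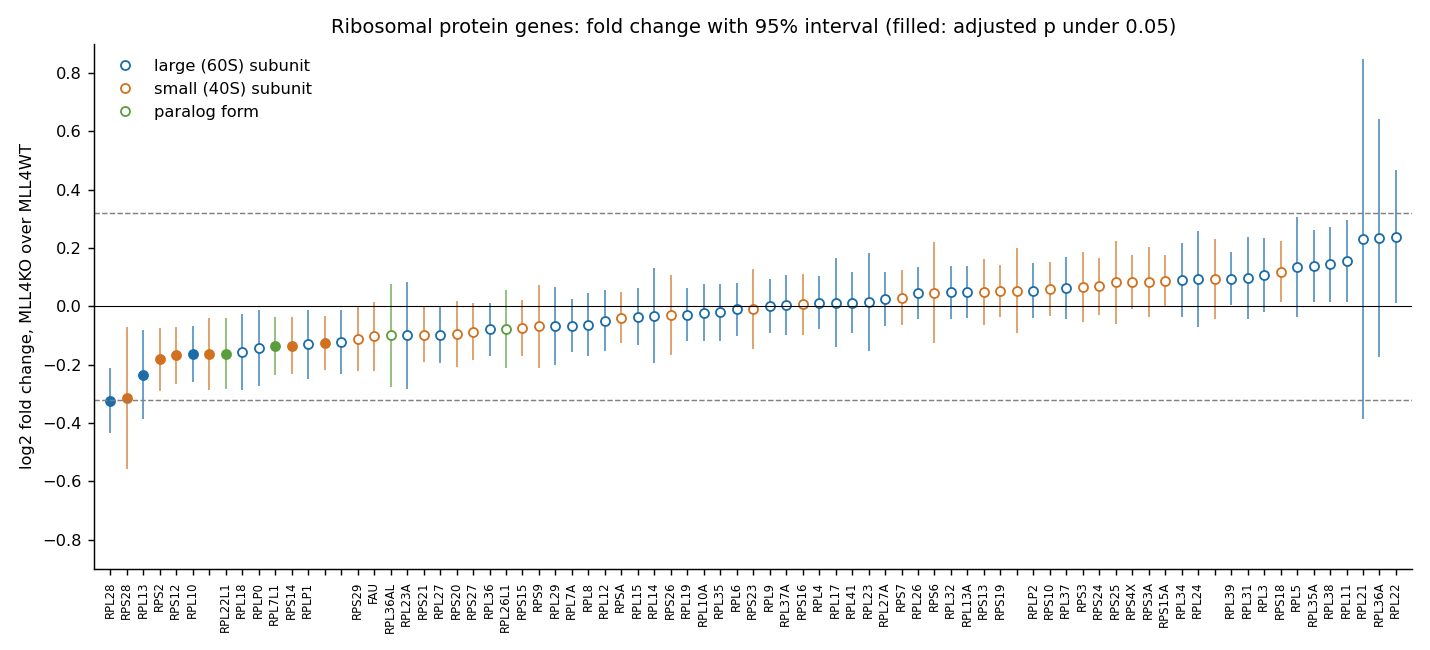
Log2 fold change (MLL4KO over MLL4WT, vertical axis) of the 79 tested ribosomal protein genes in order of fold change (horizontal axis), with 95% intervals and colours for the subunit or paralog class. Filled points passed the adjusted p of 0.05, and dashed lines mark 1.25-fold either way. The estimates run from -0.32 for RPL28 to 0.24 for RPL22, and all 11 filled points lie below 0.

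Among large-subunit genes, 3 of 44 fell (6.8%), beside 21.6% of all tested genes. RPL28, a large-subunit protein that budding yeast lacks, showed the lowest fold change of the set. RPL28 (ENSG00000108107) had 547, 526 and 542 CPM in MLL4KO cells, against 725, 652 and 646 CPM in MLL4WT cells. Every MLL4KO library lay below every MLL4WT library, and the highest MLL4WT value came from replicate 1. The log2 fold change was -0.32 ± 0.05 (SE), which is 1.25-fold lower, with an edgeR adjusted p of 0.000351. Without MLL4WT replicate 1 it was -0.26, and with per-library GC and length trends removed -0.24.

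RPL13, a large-subunit protein on chromosome 16, had 1448, 1476 and 1472 CPM in MLL4KO cells, against 1955, 1591 and 1627 CPM in MLL4WT cells. The groups do not overlap, but much of the distance comes from MLL4WT replicate 1. RPL13 fell by 0.23 ± 0.07 on the log2 scale (SE; edgeR adjusted p = 0.0199), and its log2 fold change was -0.13 without that library. With GC and length trends removed it was -0.15 and no longer passed (adjusted p = 0.0658). RPL10 sits close to the peptidyl transferase centre and joins the large subunit late in assembly. It had 692, 690 and 707 CPM in MLL4KO cells, against 814, 760 and 767 CPM in MLL4WT cells. RPL10's log2 fold change was -0.16 ± 0.04 (SE; edgeR adjusted p = 0.0106), and it was one of 4 genes still called lower after GC and length trends were removed (-0.12).

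Among small-subunit genes, 6 of 31 fell (19.4%), close to the 21.6% of all tested genes. RPS28, which lies near the exit of the messenger RNA channel, had 166, 166 and 176 CPM in MLL4KO cells, against 254, 194 and 189 CPM in MLL4WT cells. Its log2 fold change of -0.31 ± 0.10 (SE; edgeR adjusted p = 0.0443) was -0.17 without MLL4WT replicate 1, which is the high library here. RPS28 missed the threshold with DESeq2-kind size factors (adjusted p = 0.0546) and with GC and length trends removed (-0.20, adjusted p = 0.229), and counts thinned to the shallowest library gave -0.48. RPS28 pseudogenes held 17.0% of the counts of parent and pseudogenes together, so reads may be shared between the copies. With pseudogene counts added to the parent, the log2 fold change was -0.32.

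RPS2, at the entry of the messenger RNA channel, was the most abundant of the genes that fell, with 2347, 2335 and 2292 CPM in MLL4KO cells, against 2815, 2546 and 2550 CPM in MLL4WT cells. RPS2's log2 fold change was -0.18 ± 0.05 (SE; edgeR adjusted p = 0.0115). Its pseudogenes held 16.0% of the joint counts. RPS12, on the beak of the small subunit, had 536, 527 and 549 CPM in MLL4KO cells, against 575, 614 and 620 CPM in MLL4WT cells. RPS12 differs from the genes above in that MLL4WT replicate 1 is the lowest of the MLL4WT libraries. Its log2 fold change was -0.17 ± 0.05 (SE; edgeR adjusted p = 0.0104), and -0.19 without that library.

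RPS14, whose loss underlies the anaemia of the 5q- syndrome, averaged 602 ± 9.0 CPM in MLL4KO cells and 662 ± 28.0 CPM in MLL4WT cells (SD, n = 3 each). The groups do not overlap, and RPS14 fell by 0.13 on the log2 scale (edgeR adjusted p = 0.0306). After GC and length trends were removed its log2 fold change was -0.04, and 0 of the 6 small-subunit genes that fell still passed.

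The 4 tested paralog forms all had negative estimates, as did 7352 of all 14543 tested genes. Of the 4, 2 fell, beside 21.6% of all tested genes, and so few genes do not set the paralog forms apart. RPL22L1 can take the place of RPL22 in the ribosome, and in mouse cells RPL22 represses it. RPL22L1 had 135, 134 and 142 CPM in MLL4KO cells, against 141, 154 and 162 CPM in MLL4WT cells. The highest MLL4KO library slightly exceeds the lowest MLL4WT library, so the groups overlap. Its log2 fold change was -0.16 ± 0.06 (SE; edgeR adjusted p = 0.0344), and -0.20 without MLL4WT replicate 1.

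RPL22 itself had the highest point estimate of the set, with 410, 407 and 413 CPM in MLL4KO cells, against 284, 374 and 379 CPM in MLL4WT cells. The groups do not overlap, but MLL4WT replicate 1 lies far below the others. Its log2 fold change of 0.24 ± 0.10 (SE) did not pass (edgeR adjusted p = 0.0892). Without MLL4WT replicate 1 the estimate was 0.13, with an edgeR adjusted p of 9.4e-05. A ratio within a library needs no scaling: RPL22L1 had 32.9, 33.0 and 34.3 counts per 100 RPL22 counts in MLL4KO libraries, against 49.7, 41.2 and 42.9 in MLL4WT libraries. The groups do not overlap in this ratio, which was not tested.

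RPL7L1, a relative of RPL7 found in assembling large subunits, had 368, 381 and 373 CPM in MLL4KO cells, against 426, 417 and 391 CPM in MLL4WT cells. RPL7L1's log2 fold change was -0.14 ± 0.05 (SE; edgeR adjusted p = 0.0315), and -0.21 with GC and length trends removed. RPL36AL, nearly identical in protein to RPL36A, did not pass (log2 fold change -0.10, edgeR adjusted p = 0.344), though without MLL4WT replicate 1 it was -0.18 (adjusted p = 0.000548). RPL36AL had 37.2, 38.7 and 37.1 counts per 100 RPL36A counts in MLL4KO libraries, against 53.9, 45.7 and 44.7 in MLL4WT libraries, again without overlap and untested. RPL36A itself averaged 298 ± 17.1 CPM in MLL4KO cells and 250.3 ± 53.9 CPM in MLL4WT cells (SD, n = 3 each), and did not pass (edgeR adjusted p = 0.308). RPL36A's log2 fold change of 0.23 was 0.08 without MLL4WT replicate 1. RPL26L1, the form closest to RPL26, was the lowest tested member, with 43.4 ± 0.89 CPM in MLL4KO cells and 45.5 ± 2.6 CPM in MLL4WT cells (SD, n = 3 each). RPL26L1 per 100 RPL26 counts ran from 6.19 to 6.43 in MLL4KO libraries and from 6.39 to 7.21 in MLL4WT libraries, which overlap.

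The tissue-restricted forms were at or near the limit of detection. RPL39L, best known from testis, had 0 counts in each MLL4KO library and 0, 0 and 1 in MLL4WT libraries. RPL3L, the muscle form of RPL3, had 2, 9 and 3 counts in MLL4KO libraries, against 3, 4 and 6 in MLL4WT libraries. RPL10L, a testis form of RPL10, had 8, 1 and 2 counts in MLL4KO libraries, against 0, 1 and 4 in MLL4WT libraries. Their parents RPL39 and RPL3 had log2 fold changes of 0.10 and 0.11 and did not pass (edgeR adjusted p = 0.0887 and 0.168). They were 0.08 and 0.04 without MLL4WT replicate 1 (adjusted p = 0.0131 and 0.0768).

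**Figure D2:**
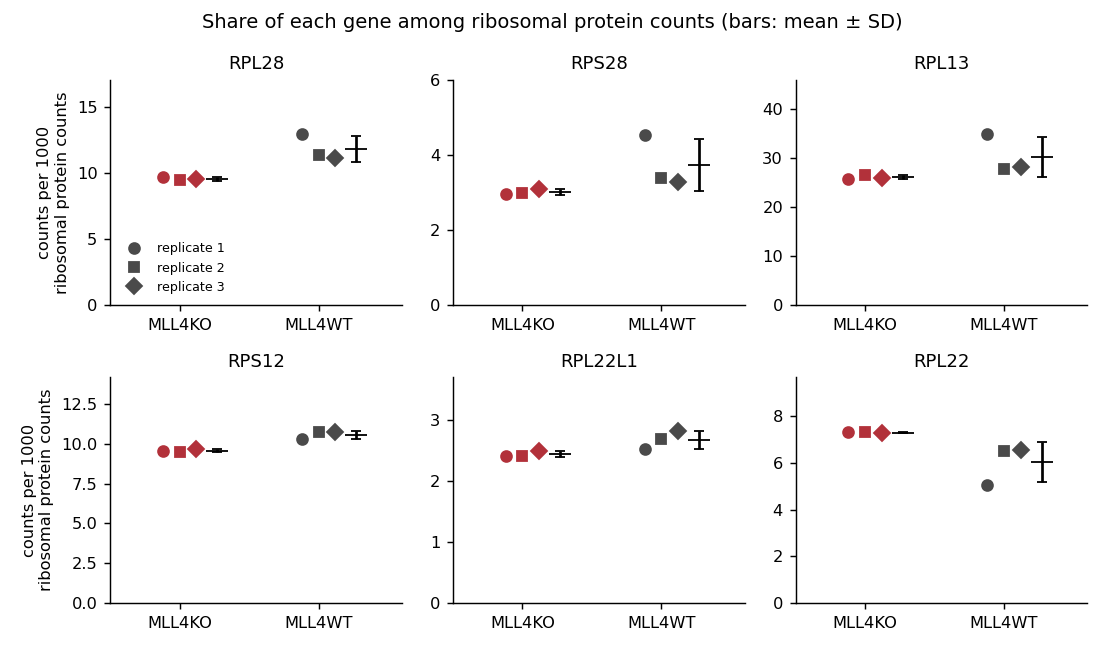
Counts of 6 genes per 1000 counts of all ribosomal protein genes (vertical axes, from 0) in each MLL4KO and MLL4WT library, with the mean ± SD beside the points and a symbol for each replicate. RPL28 has 9.46 to 9.75 in MLL4KO libraries against 11.2 to 13.0 in MLL4WT libraries, and MLL4WT replicate 1 (circle) is the highest or the lowest MLL4WT library in each panel.

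The shares in that plot do not depend on how libraries are scaled to each other. RPL28 took 9.75, 9.46 and 9.54 of every 1000 ribosomal protein counts in MLL4KO libraries, against 12.97, 11.39 and 11.19 in MLL4WT libraries. For 10 of the 11 genes that fell, the shares did not overlap between genotypes. RPL7L1 was the exception, with 6.55, 6.85 and 6.57 in MLL4KO libraries, against 7.61, 7.28 and 6.77 in MLL4WT libraries. The 11 genes were called on these same libraries, so the count of 10 was nearly fixed in advance and is no separate test. Over the 79 genes, 19 had lower and 27 had higher shares without overlap in MLL4KO libraries. By CPM, 52.5% of all tested genes did not overlap. Shares add to a fixed total, so lower shares of some genes come with higher shares of others.

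RPL11, RPL5 and RPL23, the members chosen here for a link to p53 control, did not pass the test with all 6 libraries. RPL11 had 688, 679 and 690 CPM in MLL4KO cells, against 542, 649 and 653 CPM in MLL4WT cells. The groups do not overlap, and MLL4WT replicate 1 is the low library. RPL11's log2 fold change was 0.16 ± 0.06 (SE; edgeR adjusted p = 0.0743), and 0.08 (adjusted p = 0.0040) without that library. RPL5, its partner in the 5S particle, had 954, 963 and 982 CPM in MLL4KO cells, against 754, 929 and 954 CPM in MLL4WT cells. RPL5's highest MLL4WT library lies just under its lowest MLL4KO library, and its log2 fold change was 0.13 ± 0.08 (SE; edgeR adjusted p = 0.193). Without MLL4WT replicate 1 it was 0.04 (adjusted p = 0.114), and with GC and length trends removed RPL5 passed (0.17, adjusted p = 0.0406). RPL23, which also binds MDM2, averaged 364 ± 9.1 CPM in MLL4KO cells and 359 ± 43.5 CPM in MLL4WT cells (SD, n = 3 each; edgeR adjusted p = 0.894). Its estimate of 0.01 was -0.07 without MLL4WT replicate 1 (edgeR adjusted p = 0.0307), so the direction of RPL23 rests on that library.

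The stalk proteins RPLP0, RPLP1 and RPLP2 recruit the elongation factors to the large subunit. RPLP0 averaged 1959 ± 19.4 CPM in MLL4KO cells and 2163 ± 199 CPM in MLL4WT cells (SD, n = 3 each), and RPLP1 947 ± 9.1 CPM and 1037 ± 80.4 CPM. Neither passed (log2 fold changes -0.14 and -0.13, edgeR adjusted p = 0.0762 and 0.0743). Both passed at -0.06 without MLL4WT replicate 1 (adjusted p = 0.0195 and 0.0264). With GC and length trends removed they were -0.03 and -0.09 and did not pass. RPLP2 averaged 568 ± 12.5 CPM in MLL4KO cells and 546 ± 15.6 CPM in MLL4WT cells (SD, n = 3 each; log2 fold change 0.05, edgeR adjusted p = 0.341), and passed with GC and length trends removed (0.22, adjusted p = 0.0118).

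The small-subunit members RPS6, RPSA and FAU did not pass either with 6 libraries. RPS6, the substrate of S6 kinase, averaged 1177 ± 24.4 CPM in MLL4KO cells and 1138 ± 141 CPM in MLL4WT cells (SD, n = 3 each; log2 fold change 0.05, edgeR adjusted p = 0.662). Without MLL4WT replicate 1 the estimate of RPS6 was -0.04 (adjusted p = 0.0998), so its sign rests on that library. RPSA, also known as the laminin receptor, averaged 1421 ± 6.5 CPM in MLL4KO cells and 1459 ± 8.0 CPM in MLL4WT cells (SD, n = 3 each). FAU, made as a fusion with a ubiquitin-like protein, averaged 321 ± 11.1 CPM in MLL4KO cells and 346 ± 24.4 CPM in MLL4WT cells (SD, n = 3 each). The log2 fold changes of RPSA and FAU were -0.04 and -0.10, with edgeR adjusted p-values of 0.480 and 0.157. With GC and length trends removed both had estimates above 0 (0.02 and 0.04) that did not pass.

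Genes tied to Diamond-Blackfan anaemia, an inherited shortage of red cell precursors caused by loss of a copy of a ribosomal protein gene, include RPS19, RPS24, RPS26, RPL5, RPL11, RPL15 and RPL35A. These are examples and not the full list, and other such genes may be among those that fell. None of these examples passed with 6 libraries under TMM scaling, which does not speak for the disease genes as a class. RPS19, the gene most often affected, averaged 617 ± 12.4 CPM in MLL4KO cells and 595 ± 5.7 CPM in MLL4WT cells (SD, n = 3 each; edgeR adjusted p = 0.332). RPL35A averaged 488 ± 8.4 CPM in MLL4KO cells and 443 ± 36.8 CPM in MLL4WT cells (log2 fold change 0.14, edgeR adjusted p = 0.0708). Without MLL4WT replicate 1, RPL35A passed at 0.08 (adjusted p = 0.00978) and RPS19 at 0.06 (adjusted p = 0.0349). RPL35A, RPS19 and RPS24 also passed with GC and length trends removed (0.16, 0.20 and 0.11). RPS26 averaged 239 ± 5.6 CPM in MLL4KO cells and 243 ± 23.8 CPM in MLL4WT cells, with 13.4% of the joint counts in its pseudogenes. RPS24 and RPL15 had log2 fold changes of 0.07 and -0.04.

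Of the large-subunit genes that did not pass, RPL18 came nearest to the threshold on the low side. It averaged 613 ± 12.4 CPM in MLL4KO cells and 685 ± 62.7 CPM in MLL4WT cells (SD, n = 3 each; log2 fold change -0.16, edgeR adjusted p = 0.0518). RPL18 passed without MLL4WT replicate 1 (-0.07, adjusted p = 0.0126) and stood at 0.01 with GC and length trends removed (adjusted p = 0.844). RPL27 and RPL36 had log2 fold changes of -0.10 and -0.08, which passed without MLL4WT replicate 1 (-0.11 and -0.06). RPL29, RPL7A, RPL12, RPL14, RPL19, RPL10A, RPL35 and RPL6 lay between -0.07 and -0.01. Of these, RPL7A and RPL14 passed without that library (-0.07 and -0.12, edgeR adjusted p = 0.0133 and 0.000171). RPL4, which lines the tunnel through which the new chain leaves, averaged 1847 ± 26.0 CPM in MLL4KO cells and 1831 ± 25.8 CPM in MLL4WT cells. RPL37A, RPL17, RPL27A, RPL32, RPL13A, RPL34, RPL24 and RPL31 had estimates between 0.00 and 0.10. Of these, RPL17 was called lower without MLL4WT replicate 1 (-0.07, edgeR adjusted p = 0.0158) and RPL13A higher (0.06, edgeR adjusted p = 0.0151). Pseudogenes held the highest shares of the joint counts at RPL23A, RPL9 and RPL21, with 43.3, 33.9 and 22.5%, so their counts are uncertain. RPL23A and RPL9 had log2 fold changes of -0.10 and 0.00, and RPL23A stood at 0.02 without MLL4WT replicate 1.

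Of the small-subunit genes that did not pass, RPS29, FAU and RPS21 had the lowest estimates after those that fell, at -0.11, -0.10 and -0.10, and of these RPS21 passed without MLL4WT replicate 1 (-0.09, adjusted p = 0.0178). RPS3, at the messenger RNA entry and also a DNA repair protein, averaged 1345 ± 19 CPM in MLL4KO cells and 1284 ± 100.2 CPM in MLL4WT cells (SD, n = 3 each; log2 fold change 0.07, and 0.01 without MLL4WT replicate 1). RPS4X, on the X chromosome, averaged 899 ± 9.3 CPM in MLL4KO cells and 848 ± 25.7 CPM in MLL4WT cells (log2 fold change 0.08, edgeR adjusted p = 0.140), without overlap between the groups, and passed without MLL4WT replicate 1 (0.07, adjusted p = 0.0149). RPS9, RPS23 and RPS26 had negative estimates of -0.07, -0.01 and -0.03 that became -0.14, -0.08 and -0.10 without MLL4WT replicate 1 (edgeR adjusted p = 2.9e-05, 0.00908 and 0.00857). RPS27, RPS15, RPS16, RPS7, RPS13, RPS10, RPS25 and RPS3A lay between -0.09 and 0.08. Of these, RPS27 (-0.10) and RPS7 (0.06) passed without MLL4WT replicate 1 (edgeR adjusted p = 0.00826 and 0.0271).

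The order of levels within the set was nearly the same in both genotypes (Spearman 0.98 over the 79 genes, as a description). Per kilobase of coding sequence, RPL41 was highest, with 14658 ± 278 CPM in MLL4KO cells and 14519 ± 763 CPM in MLL4WT cells (SD, n = 3 each). RPL41 encodes the smallest ribosomal protein, and reads from its untranslated regions are counted over a very short coding length. RPL8, which lies near the peptidyl transferase centre, followed with 2907 ± 21.1 CPM per coding kilobase in MLL4KO cells and 3035 ± 177 in MLL4WT cells. RPL26L1 was lowest of the tested genes, with 99.8 ± 2.0 in MLL4KO cells and 105 ± 5.9 in MLL4WT cells on the same scale.

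Much of the spread in this set came from MLL4WT replicate 1. It was the farthest from its group's mean among the MLL4WT libraries for 68 of the 79 genes. Its deviations ran from -0.53 to 0.27 on the log2 scale, and 37 genes deviated by more than 0.1, against 9 and 13 genes in MLL4WT replicates 2 and 3 and 0 in each MLL4KO library. The median within-group SD (log2) was 0.0275 in MLL4KO cells and 0.0855 in MLL4WT cells. RPL21 was the extreme case, with 451, 450 and 480 CPM in MLL4KO cells, against 262, 450 and 455 CPM in MLL4WT cells. Its log2 fold change was 0.23, and 0.03 without that library.

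Left out of the fit, this library changed the counts of calls: 12 genes rose and 29 fell, beside backgrounds of 23.7% and 25.7% of genes. All 11 genes that fell with 6 libraries were among the 29. The fold changes became smaller in range, -0.26 to 0.13 on the log2 scale, with a median of -0.02. The genes with the highest estimates among the 12 were RPL22 (0.13), RPL37 (0.12) and RPS15A (0.10). MLL4WT replicate 1 was also the only library with its run code in the column names, a code of the form used for flow cells. Of the other codes, one was shared by MLL4KO replicates 2 and 3 and MLL4WT replicate 2, and one by MLL4KO replicate 1 and MLL4WT replicate 3. Within those codes the median log2 difference of the 79 genes was -0.03 and -0.04, and all 11 genes that fell were lower in MLL4KO in both. The 11 were called from these same libraries, so this was nearly fixed in advance and is no separate test. RPL28 differed by -0.29 and -0.24.

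**Figure D3:**
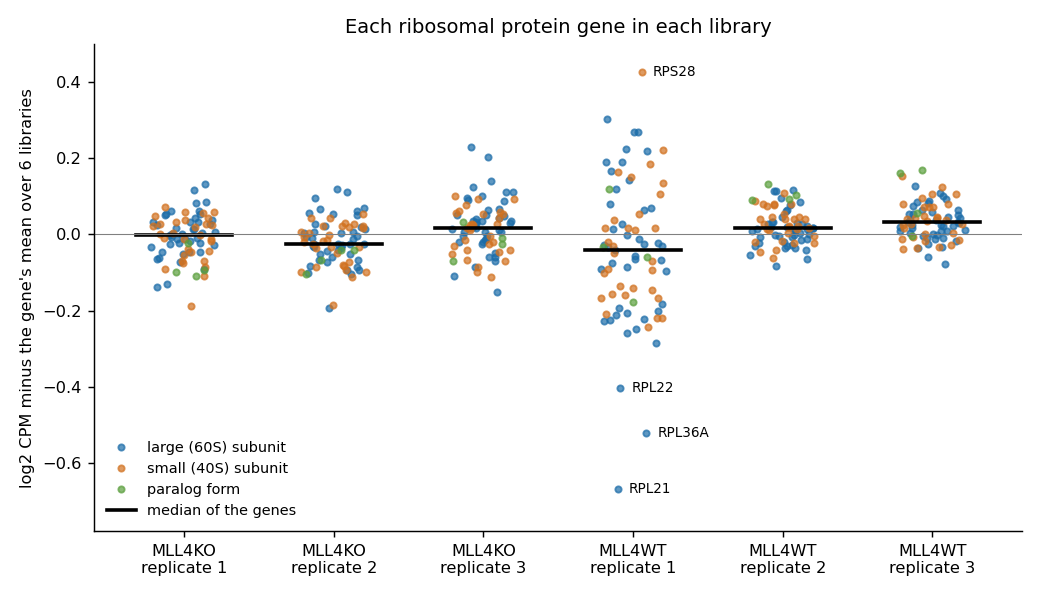
Log2 CPM of each of the 79 genes minus that gene's mean over the 6 libraries (vertical axis), by library, MLL4KO first, with black bars at the median. Points of MLL4WT replicate 1 spread the most, with RPS28 at the top and RPL21, RPL36A and RPL22 at the bottom, while the other 5 libraries are narrow.

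Base composition moved with the fold changes. Over the 79 genes the Spearman correlation of log2 fold change with transcript GC content was -0.37, given as a description since the genes share their libraries. It was -0.17 over 14402 tested genes with a GC value and -0.22 for the 79 genes without MLL4WT replicate 1. Of the 11 genes that fell, 9 were above the set's median GC of 49.7%, where 39 of the 79 lie. The deviation of MLL4WT replicate 1 from the other MLL4WT libraries rose with GC (Spearman 0.46).

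With GC and length trends removed from each library, 17 genes rose and 4 fell, beside backgrounds of 20.0% and 22.9%. The 4 were RPL28, RPL10, RPL22L1 and RPL7L1. The highest estimates among the 17 were RPLP2 and RPL3 (both 0.22), RPL22 (0.21), RPL38 (0.21), RPS18 (0.21) and RPL11 (0.20). The median log2 fold change was then 0.06 and the correlation with GC 0.12. With MLL4WT replicate 1 also left out, a choice made after the data were seen, 28 rose and 16 fell, beside backgrounds of 22.5% and 26.6%. The part of GC content in the calls was not tested beyond these fits.

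**Figure D4:**
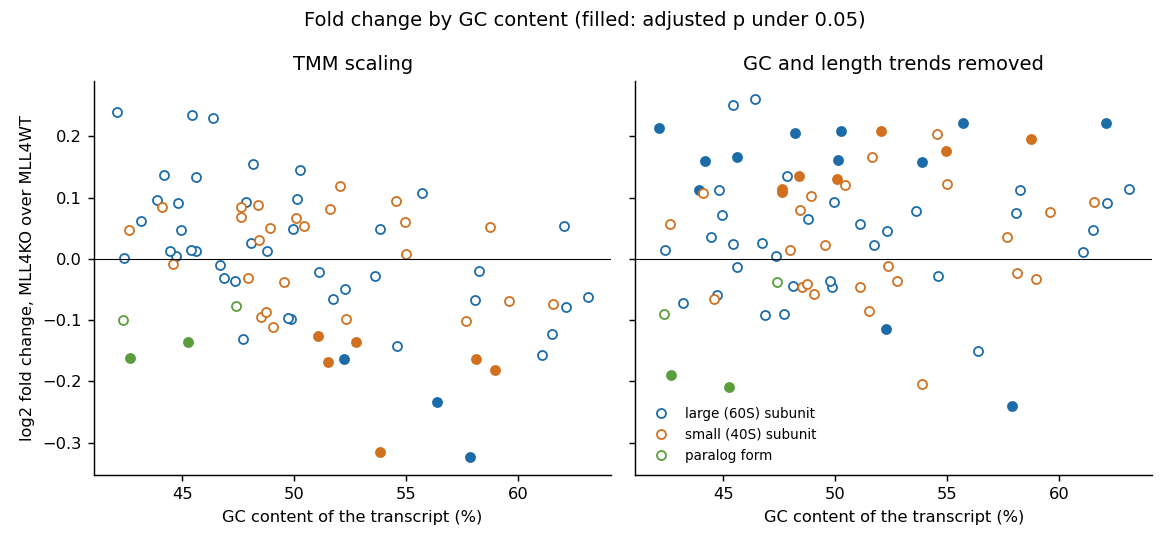
Log2 fold change (MLL4KO over MLL4WT, vertical axes) against transcript GC content in percent for the 79 genes, under TMM scaling (left) and with GC and length trends removed from each library (right). Filled points passed an adjusted p of 0.05. On the left 9 of the 11 filled points lie above the median GC of 49.7%, and on the right 4 filled points lie below 0 and 17 above.

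Which genes were called depended on the scaling. With total counts alone, 18 genes rose and 1 fell, beside backgrounds of 25.5% and 16.5%, and the median of all tested genes shifted by 0.06 (log2). With cyclic loess normalisation, which follows expression level, 29 rose and 1 fell, beside 21.2% and 20.6%. RPL28 was the gene still called lower in both, and its log2 fold change lay between -0.35 and -0.21 under every alternative run. TMM factors computed without the ribosomal protein genes gave the same counts as TMM over all tested genes, 0 rose and 11 fell.

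RPS27A and RPS27L, which the rule left out, did not pass with 6 libraries. RPS27A, made as a fusion with ubiquitin, averaged 515 ± 5.3 CPM in MLL4KO cells and 467 ± 54.0 CPM in MLL4WT cells (SD, n = 3 each; edgeR adjusted p = 0.147). RPS27L, a p53-induced relative of RPS27, averaged 31.0 ± 0.97 CPM in MLL4KO cells and 32.5 ± 0.73 CPM in MLL4WT cells (edgeR adjusted p = 0.417). With GC and length trends removed both passed, RPS27A at 0.16 and RPS27L at -0.18.

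The genes set aside on chromosome 8 had log2 fold changes of larger size than any member. RPL30 averaged 385 ± 5.0 CPM in MLL4KO cells and 534 ± 9.8 CPM in MLL4WT cells (SD, n = 3 each; log2 fold change -0.48). RPL7 averaged 869.8 ± 7.4 CPM in MLL4KO cells and 1160 ± 161 CPM in MLL4WT cells (log2 fold change -0.42, edgeR adjusted p = 0.0046). Members on the same chromosome outside that stretch did not pass: RPL8 had a log2 fold change of -0.06 and RPS20 of -0.09 (edgeR adjusted p = 0.341 and 0.169). Both were called lower without MLL4WT replicate 1 (-0.10 and -0.13, adjusted p = 6.2e-05 and 0.000286).

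Other genes of translation give the setting. Of 77 mitochondrial ribosomal protein genes, 44 fell and 3 rose, with a median log2 fold change of -0.23. MRPL12 averaged 147 ± 1.7 CPM in MLL4KO cells and 251 ± 7.4 CPM in MLL4WT cells, and MRPL24 33.6 ± 0.92 CPM and 52.5 ± 1.6 CPM (SD, n = 3 each). MRPS6 (log2 fold change 0.46) and MRPL39 (0.45) rose. The difference between the mitochondrial and the cytosolic set was not tested.

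Of 28 genes for initiation factors and their 4E-binding proteins, 13 fell and 2 rose, with a median of -0.14. EIF4A1, the helicase of the cap-binding complex, averaged 1075 ± 9.6 CPM in MLL4KO cells and 1374 ± 34.9 CPM in MLL4WT cells (SD, n = 3 each; log2 fold change -0.35). EIF4EBP1, an mTORC1-controlled inhibitor of cap binding, averaged 50.5 ± 3.6 CPM in MLL4KO cells and 81.8 ± 8.1 CPM in MLL4WT cells (log2 fold change -0.68). EIF4EBP2, a related inhibitor, rose (0.20), as did EIF2S3 (0.13), and neither passed with GC and length trends removed.

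Of 14 elongation and release factors, 4 fell and 0 rose, with a median of -0.03. EEF1D averaged 345 ± 6.7 CPM in MLL4KO cells and 454 ± 6.8 CPM in MLL4WT cells (SD, n = 3 each; log2 fold change -0.40), and EEF1A2 fell by 0.23 on the log2 scale (by 0.08, not passing, with GC and length trends removed). EEF1A1, the most abundant of the 5′ TOP messengers outside the ribosome, averaged 10180 ± 182 CPM in MLL4KO cells and 9714 ± 533 CPM in MLL4WT cells, and did not pass (edgeR adjusted p = 0.317). Of 25 other 5′ TOP messengers, some counted above, 6 fell and 3 rose, with a median of 0.03. SLC25A6 fell (-0.36), while EIF4A2 (0.28) and EIF4B (0.23) rose.

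Of 19 genes of the TOR pathway and regulators of TOP messengers, 5 fell and 3 rose, with a median of -0.12. MLST8, a subunit of both TOR complexes, averaged 48.1 ± 0.88 CPM in MLL4KO cells and 77.0 ± 9.5 CPM in MLL4WT cells (SD, n = 3 each; log2 fold change -0.66). RICTOR (0.44) and RPS6KB1, which encodes S6 kinase (0.31), rose. LARP1 and MTOR did not pass (log2 fold changes -0.07 and -0.03, edgeR adjusted p = 0.288 and 0.619), and LARP1 passed without MLL4WT replicate 1 (-0.08, adjusted p = 0.0469) and with GC and length trends removed (-0.12, adjusted p = 0.0347).

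Of 15 transcription factors known or proposed to act on ribosomal protein genes, 1 rose and 4 fell, with a median of -0.05. GABPA, the DNA-binding subunit of an ETS-family factor whose core letters were searched above, had 94.1, 96.3 and 94.0 CPM in MLL4KO cells, against 46.2, 52.7 and 52.6 CPM in MLL4WT cells. This was 1.86-fold higher (log2 fold change 0.89, edgeR adjusted p = 3.04e-07). GABPA lies on chromosome 21, as do MRPS6 and MRPL39, and a link of its level to the ribosomal protein genes was not tested. Its partner GABPB1 fell (-0.27), as did THAP11 (-0.44). MYC did not pass (log2 fold change -0.05, edgeR adjusted p = 0.410). Of 19 chaperones, importers and assembly factors that handle ribosomal proteins, 3 fell and 1 rose, with a median of -0.08. RRP12 (-0.39) and GRWD1 (-0.31) fell, and the importer TNPO1 rose (0.14; not passing at 0.09 with GC and length trends removed).

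**Figure D5:**
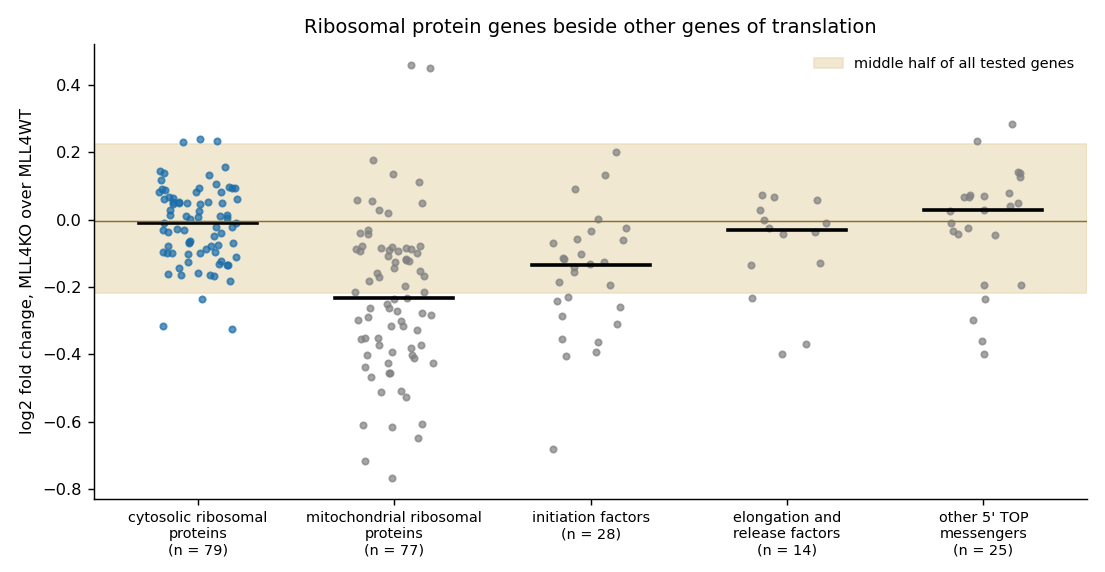
Log2 fold change (MLL4KO over MLL4WT, vertical axis) of each tested gene in the cytosolic ribosomal protein set and in 4 other lists of translation genes, with black bars at the medians. The shaded band runs between the quartiles of all tested genes. The cytosolic set lies mostly inside the band with a median of -0.01, and the mitochondrial ribosomal proteins have a median of -0.23.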

How the data were processed

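Total RNA was poly(A)-selected and made into libraries with a NEBNext Ultra II kit, per the labels' protocols, which do not state that strand was kept. The authors deposited 1 table of whole-number estimated counts per Ensembl gene (expected counts). The submitters' processing notes name Salmon 1.8.0, DESeq2 1.44.0 and hg38, with no annotation release named. Symbols and gene types came from the reference tables and GENCODE 29. Members and lists were chosen with earlier results of these data known. Genes were filtered with filterByExpr, scaled by TMM and tested with edgeR 4.0.16 (robust quasi-likelihood, R 4.3.3), adjusted over all tested genes. CPM and SD use TMM-scaled library sizes. Alternatives used DESeq2 1.42.0, limma 3.58.1, other scalings, filters and thinning, a term for the run code in the column names, a replicate block, GC and length trends removed by lowess (span 0.3), and each library left out. Named were the called genes, paralogs, p53-linked and stalk members, RPS6, FAU, RPSA, level extremes, and 2 called genes per direction from each other list. RPS20, RPL8, RPL21, MYC, LARP1, MTOR, EEF1A1, and other members named as examples were added after their values were seen. The script was tested on simulated counts. Counts shared with pseudogenes or overlapping genes may be misassigned. The replicate numbers did not pair libraries (deviation correlations 0.0217, 0.0278 and 0.0095), so the reported fit has no block. A few members and other listed genes are counted but not reported here by name, and their axis labels are blank.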

Additional observations from a re-analysis of the deposited data

How the results depend on the processing

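The counts of calls depended on the setting, while RPL28 was called lower under every alternative run. Beside 0 genes higher and 11 lower as reported, 1 was higher with DESeq2-kind size factors, limma-voom, the replicate block or thinned counts. The number higher was 2 with the DESeq2 Wald test, 5 with no filter and 5 with a stricter filter. Over all tested genes, the share higher in these fits ran from 11.5% with no filter to 23.4% with the stricter filter. Upper quartile factors gave 11 higher and 1 lower (median log2 fold change 0.0455), beside 24.5% and 17.0% of all tested genes, whose median was 0.0498. Total counts gave 18 and 1 (0.0535), beside 25.5% and 16.5%, and cyclic loess 29 and 1 (0.0696), beside 21.2% and 20.6%. GC and length trends removed gave 17 and 4 (0.0561), beside 20.0% and 22.9%. That fit without the shallowest library gave 28 and 16 (0.0375), beside 22.5% and 26.6%. The run-code term gave 11 higher and 30 lower, beside 23.9% and 27.4% of all tested genes. MLL4WT replicate 1 is alone in its code, so this term in effect leaves that library out of the comparison. Thinning to the shallowest library left 6 lower, beside 15.3%. With each library left out in turn, 0 to 12 genes were higher and 1 to 29 lower. Of all tested genes, 14.6 to 23.7% were higher and 15.7 to 25.7% lower in those fits. The lowest count, 1 lower, came without MLL4KO replicate 1 and without MLL4KO replicate 2, and 3 were lower without MLL4KO replicate 3. Without MLL4WT replicate 3, 3 were higher and 7 lower. The summed level differed by 0.0405 (log2) as a share of raw counts. RPL23 changed sign to -0.0748 with the run-code term and ranged from -0.0703 (without MLL4WT replicate 1) to 0.0714 with each library left out, and RPS6 changed to -0.0548 with the run-code term. The cause was not tested in any of these. The replicate block, for numbers that did not pair the libraries, left 11 lower, beside 20.8% of all tested genes. Of 546 single-gene values, 424 stayed on the same side of the threshold, 65 no longer passed and 57 newly passed. The estimate changed sign in 17 of them, 3 called under the alternative and 14 called in neither fit. The lowest mean of a tested member was 44.4 CPM.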
